A study of Saccharomyces cerevisiae with 22 samples.

Results

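Ribosome biogenesis factors are the proteins that build ribosomes but are not part of the finished particle. The genes described here were chosen by name: those with a standard name of the UTP, NOP, RRP, NSA, RPF, ENP, PWP or IMP series in a stated number range, and 12 further factors listed by name, KRR1, MPP10, DIP2, SOF1, BMS1, BRX1, EBP2, NIP7, NUG1, RLP7, RLP24 and BFR2. The rule found 75 genes in the RefSeq annotation of the S288C genome, and 75 of 75 had a row both among the 5919 entries of the polyA tables and among the 18222 features of the total RNA tables. By known role they fall into 23 factors of the large subunit, 6 members of the UtpA (t-UTP) complex, 6 of UtpB, 2 of UtpC, 3 of the Mpp10 complex, 19 other factors of the small subunit, 5 core proteins of small nucleolar ribonucleoproteins (snoRNPs), 3 factors that serve both subunits, 7 exosome subunits and NOP13, which was given no such role.

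The study compared haploid budding yeast (Saccharomyces cerevisiae) with arrays of ribosomal DNA (rDNA) of different sizes; the array is the run of repeated rRNA genes on chromosome XII. Total RNA without polyA selection was sequenced from 10 strains, with 72, 84, 118, 129, 147, 156, 197, 208, 224 and 237 repeats. PolyA-selected RNA was sequenced from 2 strains with 104 and 166 repeats, whose polyA recovery is labelled low, and from the same 10 strains at normal recovery. All strains are labelled MATa his3d1 lyp1d0 can1d::STE2pr-spHIS5, so every group shares the 3 altered loci and the marker driven by the STE2 promoter. Each array length is 1 strain with 1 library per assay, so a slope over strains also holds anything else in which the strains differ, and the p-values measure only the spread between these strains. The strain names fall into 4 series. Series CGY28 holds the strains with 197, 208 and 224 repeats and the low-recovery strain with 166, CGY24 those with 72, 129 and 156 and the low-recovery strain with 104, CGY20 those with 118, 147 and 237, and CGY29 that with 84.

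As background, ribosome assembly in yeast begins in the nucleolus on the nascent pre-rRNA. The t-UTP (UtpA), UtpB, UtpC and Mpp10 complexes join the U3 snoRNP to form the small-subunit processome, snoRNPs guide methylation and pseudouridylation of the rRNA, large-subunit factors assemble on the later part of the transcript, and the exosome trims 3′ ends. The genes of these factors are known as a co-regulated set that is switched on with growth and turned down under stress, and many carry a pair of promoter elements, PAC and RRPE, bound by the repressors Dot6 and Tod6 and by Stb3.

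Depth in total RNA was 6495626 to 7934346 reads per library, with 93.5% to 94.4% on the rDNA, and 377961 to 465591 reads lay outside it. The factors took 2907 to 3863 of these reads per library, with a median of 27.7 reads per gene and library (4.5 to 291.2 across the 75 genes), so total RNA values of single factors carry a large counting error. NOP19, RRP36 and UTP30, with 4.5, 4.5 and 7.1 reads on average, did not pass the filter on low counts, which left 72 of 75 in every total RNA test. The polyA values are TPM, abundances that sum to 1000000 in a library and so keep no depth. The markers STE2 and MF(ALPHA)1 went with the labelled mating type. STE2, the a-cell receptor, lay between 382.0 and 466.2 TPM, while MF(ALPHA)1 reached at most 1.28 TPM. Of the marker genes looked at, 7 of 7 a-specific, 2 of 4 alpha-specific and 8 of 11 meiosis and sporulation genes averaged 1 TPM or more in polyA RNA of normal recovery. In polyA RNA of normal recovery LYP1 and CAN1 were listed at 0, whereas HIS3 lay between 86.0 and 102.6 TPM; which part of HIS3 these reads cover cannot be told from TPM. In total RNA CAN1 still had 24.19 to 35.2 normalised counts. In bulk cultures, fewer cells that express a gene and less RNA per cell cannot be told apart.

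The promoters are shown first because many of the factors share the letters of PAC and RRPE. In the window from 250 bases before to 50 bases after the first base of the start codon, the letters GATGAG (PAC core, either strand) were found for 65 of 75 factors, 86.7%, against 20.4% of 6001 protein-coding genes, and AAAAATTT (RRPE core, either strand) for 59 of 75, 78.7%, against 14.1%. By their letters a match to one motif cannot share a base with a match to the other. Both were present for 52 factors, 69.3%, against 5.63% of all genes, and RRP45, RRP46 and UTP22 had neither. The exosome subunits held PAC in 3 of 7 and RRPE in 3 of 7 windows, and the UtpC pair held no PAC, whereas 21 of 23 large-subunit factors and 18 of 19 other small-subunit factors held PAC. The 100 PAC matches had a median position of -113.5 and the 78 RRPE matches one of -137, counted from the start codon. The stretches below hold the matches, in capitals, with 12 bases on either side where the window allows, for the 4 factors with the lowest p and a negative polyA slope on array length (IMP3, RLP7, RRP3, NOP19) and for the 2 of highest polyA level (NOP10, NOP1, the second of which also had the lowest p among positive slopes). They are RefSeq sequence of the S288C genome, assembly R64, which is the sacCer3 build, and were not read from the strains.
IMP3: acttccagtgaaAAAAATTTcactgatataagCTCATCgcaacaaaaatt
RLP7: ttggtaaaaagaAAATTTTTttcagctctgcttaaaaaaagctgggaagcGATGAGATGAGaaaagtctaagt
RRP3: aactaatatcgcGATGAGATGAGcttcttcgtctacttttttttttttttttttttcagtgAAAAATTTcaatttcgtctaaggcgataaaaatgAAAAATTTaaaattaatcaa
NOP19: gcaatttctagcGATGAGattggaaaaact
NOP10: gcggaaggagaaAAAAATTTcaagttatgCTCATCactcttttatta
NOP1: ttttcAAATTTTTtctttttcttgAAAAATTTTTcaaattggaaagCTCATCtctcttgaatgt
These stretches lie at chrVIII:393420-393469 (plus strand) for IMP3, chrXIV:627220-627292 (minus strand) for RLP7, chrVIII:229141-229255 (minus) for RRP3, chrVII:995502-995531 (plus) for NOP19, chrVIII:241522-241568 (plus) for NOP10 and chrIV:427114-427177 (plus) for NOP1. CTCATC is GATGAG and AAATTTTT is AAAAATTT read on the other strand. RLP7 and RRP3 each hold 2 overlapping copies of GATGAG, RRP3 holds AAAAATTT at 2 places, NOP1 holds 3 copies of it, of which 2 overlap on opposite strands, and NOP19 has PAC alone. A match is a description of these letters and not a binding site.

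The factors were transcripts of middle abundance. In polyA RNA of normal recovery their mean TPM had a median of 43.0, against 23.5 over all genes tested, and 42 of the 75 lay between 20 and 50 TPM, 21 between 50 and 100, 9 at or above 100 and 3 below 20. The snoRNP core proteins stood highest by role, with a median of 240.8 TPM. NOP10, a core protein of the H/ACA snoRNPs that guide pseudouridylation, averaged 1579 ± 114 TPM (SD, n = 10), and NOP1, the rRNA methyltransferase fibrillarin, 720.2 ± 51.9 TPM. NOP56 and NOP58, the other core proteins of the C/D snoRNPs, averaged 240.8 ± 20.56 and 180.3 ± 11.2 TPM, and RRP9, which is bound to U3 alone, 33.0 ± 3.4 TPM. The order of these 5 levels held in each of the 10 strains, and only the ranges of NOP56 and NOP58 overlap. Large-subunit factors had a median of 72.7 TPM, from NOP8 at 17.3 to NIP7, a factor of 60S assembly, at 158.2. The exosome subunits had a median of 47.2 TPM, from the nuclear exonuclease RRP6 at 25.5 to the ring subunit RRP42 at 68.1. The processome complexes were lower and close to each other, with medians of 44.9 TPM for UtpC, 44.1 for Mpp10, 35.1 for UtpA and 29.6 for UtpB. Within UtpA the levels ran from 28.1 TPM for UTP10 to 43.0 for UTP5, within UtpB from 24.5 for UTP6 to 36.7 for PWP2, and within the Mpp10 complex from 43.7 for MPP10 to 52.6 for IMP4. The factors of both subunits had a median of 33.6 TPM, with RRP5 at 31.2 and RRP14 at 57.1, and the other small-subunit factors one of 32.8 TPM, from UTP20, a very large processome protein, at 13.8, the lowest of the 75, to NOP6 at 99.6.

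**Figure D1:**
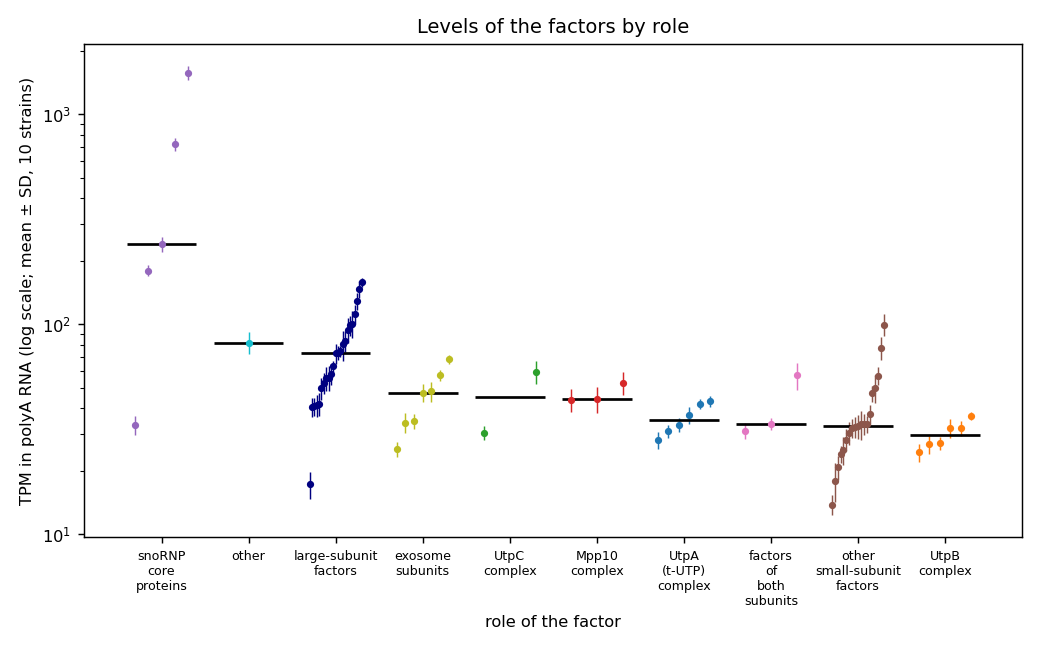
Mean TPM of each factor in polyA RNA of normal recovery (log scale), grouped by role; bars are ± 1 SD over 10 strains and black lines the median of the role. NOP10 and NOP1 stand far above the rest, and the UtpA and UtpB factors lie in a narrow band between 24.5 and 43.0 TPM.

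Whether the factors follow array length was asked first in polyA RNA. Their slopes leaned to lower levels in strains with more repeats, but no factor passed the test. Limma called 0 of 75 at an adjusted p under 0.05, as it did 0.0% of all 5542 genes. Before adjustment 8 of 75 had a p under 0.05, all negative, where 3.68% of all genes did so in that direction, and 68 of 75 slopes were negative against 59.4% of all genes. The median slope was -0.10 on the log2(TPM + 1) scale per 100 repeats for the factors and -0.02 over all genes.

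IMP3, which helps the U3 snoRNA pair with the pre-rRNA as part of the Mpp10 complex, had the lowest p. It lay at 32.1 TPM in the lowest strain, 44.9 in the median and 50.4 in the highest. The 4 strains below 43 TPM were those with 129, 208, 224 and 237 repeats, and the strain with 208 was the lowest. Its slope was -0.29 ± 0.08 (SE) with an adjusted p of 0.506 in limma. Its partner IMP4 ran from 37.3 over 53.9 to 62.7 TPM, with a slope of -0.20 ± 0.09 (limma adjusted p = 0.868), and MPP10, the namesake of the complex, from 30.1 over 45.2 to 50.3 TPM with -0.11 ± 0.10. In all members of the complex the strain with 208 repeats was lowest. RLP7, a large-subunit factor that resembles a ribosomal protein, ran from 71.4 over 102.6 to 108.5 TPM (slope -0.20 ± 0.08), and RRP3, an RNA helicase of small-subunit processing, from 24.6 over 33.9 to 37.9 TPM (slope -0.19 ± 0.08). NOP19, another small-subunit factor, spanned 18.0 to 31.0 TPM (slope -0.22 ± 0.10), and RRP1, which acts in large-subunit assembly, had a slope of -0.21 ± 0.09. RLP7, RRP3, NOP19 and RRP1 had the same adjusted p in limma as IMP4, 0.868. RPF2 and RRP15, both of large-subunit assembly, each at -0.18 ± 0.08, complete the 8.

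By role, the large-subunit factors had negative slopes in 23 of 23 (median -0.14), the other small-subunit factors in 18 of 19 (-0.12), the Mpp10 complex in 3 of 3 (-0.20), UtpB in 6 of 6 (-0.06), the exosome in 6 of 7 (-0.06) and the snoRNP core proteins in 4 of 5 (-0.07). The UtpA complex, which is needed for transcription of the rDNA as well as for processing, was split, with 3 of 6 negative and a median of 0.00. Among the 7 positive slopes were UTP10, UTP15 and UTP5 of UtpA at 0.06 ± 0.08, 0.03 ± 0.06 and 0.02 ± 0.06, NOP1 at 0.06 ± 0.06, UTP22 at 0.05 ± 0.07 and UTP20 at 0.05 ± 0.09. All were smaller than or about as large as their SE. Shorter genes had the more negative slopes (Spearman's rho of slope with coding length 0.53 over 75 factors and 0.19 over 5536 genes, as a description).

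**Figure D2:**
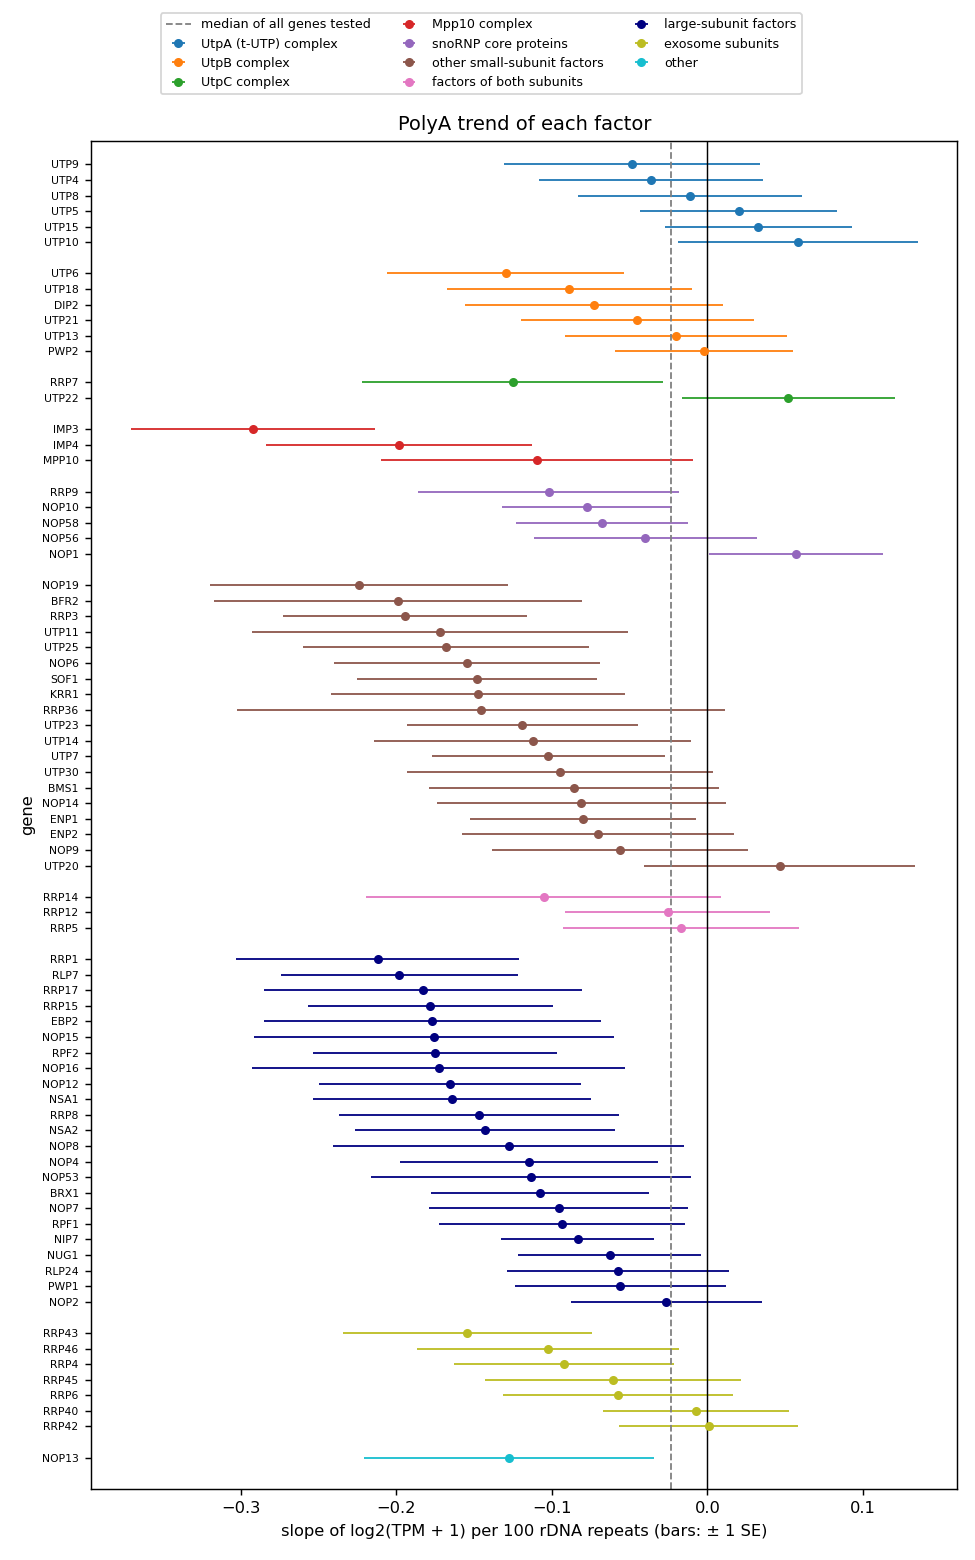
Slope of log2(TPM + 1) per 100 rDNA repeats for each of the 75 factors, by role, with ± 1 SE; the dashed line is the median of all genes tested. Most points lie left of 0, IMP3 farthest at -0.29, while the UtpA factors straddle 0.

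**Figure D3:**
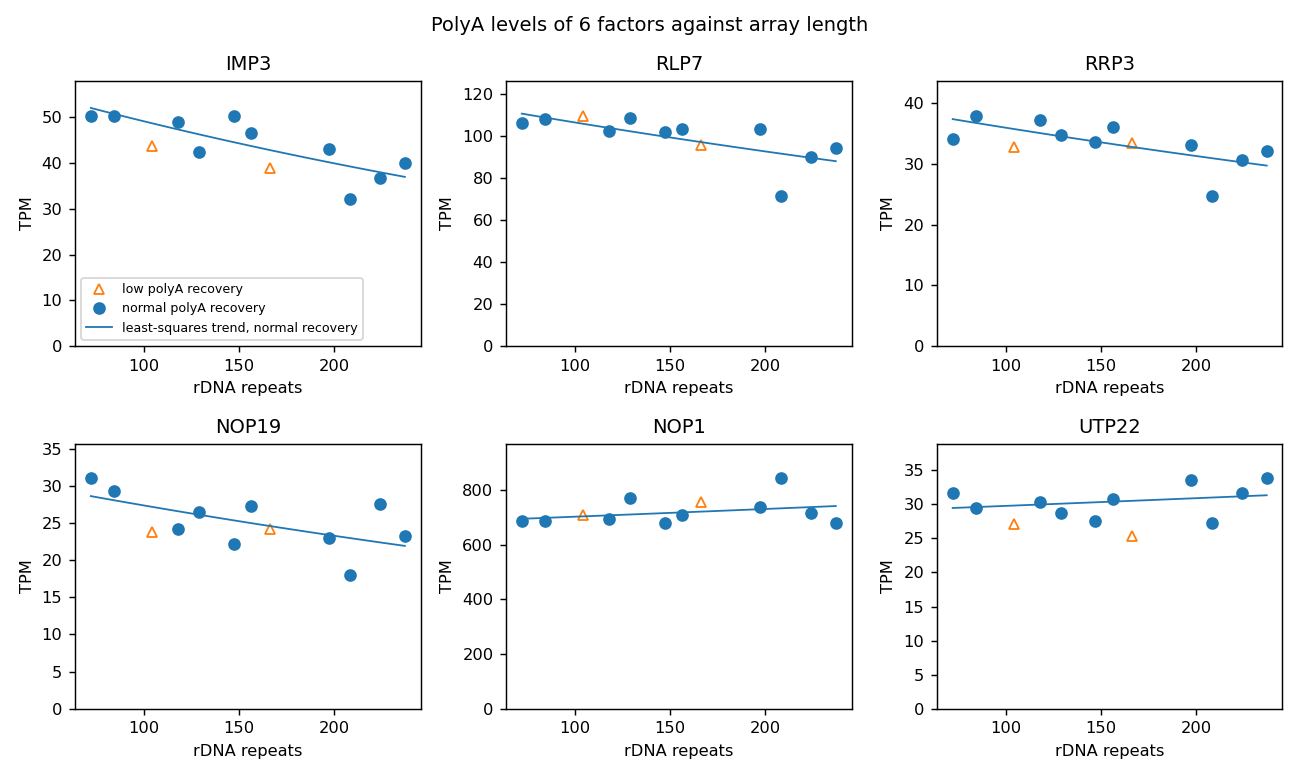
TPM of 6 factors against repeat number: triangles are the 2 low-recovery libraries, filled points the 10 of normal recovery, and lines the least-squares trend of log2(TPM + 1) at normal recovery. Among the 10 points of normal recovery, the strain with 208 repeats is the lowest for IMP3, RLP7, RRP3, NOP19 and UTP22 and the highest for NOP1, and both triangles of UTP22, at 27.1 and 25.4 TPM, lie below it.

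The lean depended on the strains and covariates used. Without the strain with 208 repeats the median slope was -0.03 for the factors and 0.00 over all genes, and 55 of 75 slopes were negative against 47.9% of all genes. In that fit 5 of 75 factors had a negative slope with an unadjusted p under 0.05, against 2.76% of all genes. For positive slopes it was 0 of 75 against 2.89%. Leaving out the strain with 237 repeats instead gave medians of -0.16 and -0.05, and 22 of 75 factors had a negative slope with an unadjusted p under 0.05, against 8.34% of all genes. With strain series as a covariate the medians were -0.03 and 0.02. There 48 of 75 slopes were negative against 42.9% of all genes, and 0 of these had an unadjusted p under 0.05, against 0.812%. No factor was called by limma in any of these fits.

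The strain with 208 repeats was singled out after its values had been seen. In total RNA the median deviation of the factors from their own mean over the strains was -0.30 on the log2 scale in that strain, and in the other 9 it lay between -0.03 and 0.16; over all features it was 0.02 there. In polyA RNA the median was -0.36, in the other 9 strains it lay between -0.08 and 0.10, and over all genes it was -0.15 there. Within its own series CGY28 the polyA medians were 0.10 at 197, -0.36 at 208 and -0.08 at 224 repeats, and those of total RNA 0.07, -0.30 and -0.03. The factors took 0.626% of the reads outside the rDNA in total RNA of that strain and 0.774% to 0.860% in the others, and 0.538% of the TPM in its polyA RNA against 0.605% to 0.668%.

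Of the factors, 70 of 75 had their lowest polyA value in the strain with 208 repeats, as did 46.6% of all genes, and 30 of 72 their lowest total RNA value, as did 13.6% of all features. When the libraries were shifted to the same median over all genes, 49 of 75 were lowest there in polyA RNA against 23.9% of all genes, and after quantile normalisation 52 against 24.4%. For total RNA these counts were 30 of 72 against 13.4% of all features and 27 of 72 against 13.8%. The 5 factors not lowest there in polyA RNA were NOP1, RRP42, RRP40, UTP10 and UTP5. NOP1 had 843.0 TPM in that strain, its highest, against 679.1 to 769.7 in the other strains, and RRP42 73.8 TPM, also its highest, against 61.9 to 71.9. In total RNA NOP1 had 264 normalised counts there, inside its range of 240.5 to 312. UTP10 and UTP5 lay within 0.2 TPM of their lowest strain.

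All 30 factors that were lowest there in total RNA were also lowest there in polyA RNA. Since 67 of the 72 were lowest there in polyA RNA, nearly all of any 30 would be. The share of all genes lowest there in both assays was not computed, so nothing is read from the overlap. The 30 were 11 large-subunit factors, 8 other small-subunit factors, 3 snoRNP core proteins, 2 of the Mpp10 complex, 2 of UtpB and NOP13. UtpA, the exosome and the factors of both subunits gave 1 each. A few, chosen after their values were seen, show the gap. RRP5 had 232.4 normalised counts of total RNA at 208 repeats against 272 to 324 in the other strains, and 26.3 TPM of polyA RNA against 29.3 to 36.2. NOP56 had 102 normalised counts against 126.8 to 160.6, and 186.6 TPM against 232.7 to 257.0. In both assays both genes lie clear of the other 9 strains. BMS1 had 58.8 normalised counts against 74.0 to 107.8, and 20.8 TPM against 24.9 to 31.9. UTP14, a processome protein that recruits a helicase, had 34.3 normalised counts against 44.6 to 59.2, and 22.6 TPM against 30.1 to 37.9. KRR1 had 11.8 normalised counts against 20.9 to 36.0, and 53.5 TPM against 67.6 to 86.4. The gap is again present in both assays, though for KRR1 it rests on few reads of total RNA, as it does for the next pair. RRP6, the one exosome subunit among the 30, had 14.7 normalised counts against 21.8 to 46.8, and 20.7 TPM against 24.8 to 28.6. RPF1, of large-subunit assembly, had 2.94 normalised counts against 7.82 to 15.6, and 31.3 TPM against 38.6 to 45.7.

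By role the median deviation at 208 repeats was -0.63 in total RNA and -0.48 in polyA RNA for the Mpp10 complex, and the single gene NOP13 stood at -0.58 and -0.49. UtpB stood at -0.48 and -0.28, the large-subunit factors at -0.47 and -0.44, the other small-subunit factors at -0.44 and -0.41, the factors of both subunits at -0.29 and -0.23, the snoRNP core proteins at -0.19 and -0.20, the exosome at -0.08 and -0.30, UtpC at -0.07 and -0.30, and UtpA at -0.11 and -0.19. Grouped by promoter letters, the 52 factors with both motifs had medians of -0.31 in total RNA and -0.36 in polyA RNA there. The 13 with PAC alone stood at -0.56 (11 tested in total RNA) and -0.39, and the 7 with RRPE alone at -0.11 (6 tested) and -0.44. The 3 with neither stood at 0.05 and -0.31. The order of these classes thus differed between the assays, though total RNA lacks the factors not tested. Other gene groups in that strain stood at -0.19 and -0.20 for RNA polymerase I subunits, -0.00 and -0.08 for cytosolic ribosomal proteins, and 0.26 and 0.01 for general stress genes. In both assays the stress genes stood higher at 72 repeats (0.33 and 0.16) and at 84 repeats (0.41 and 0.28). The medians of the factors were 0.06 and 0.07 at 72 repeats, and 0.03 and 0.05 at 84. At 147 repeats the stress genes were lowest (-0.47 and -0.29) and the factors stood at 0.16 and 0.04. The part of stress or growth in the values of the factors was not tested.

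**Figure D4:**
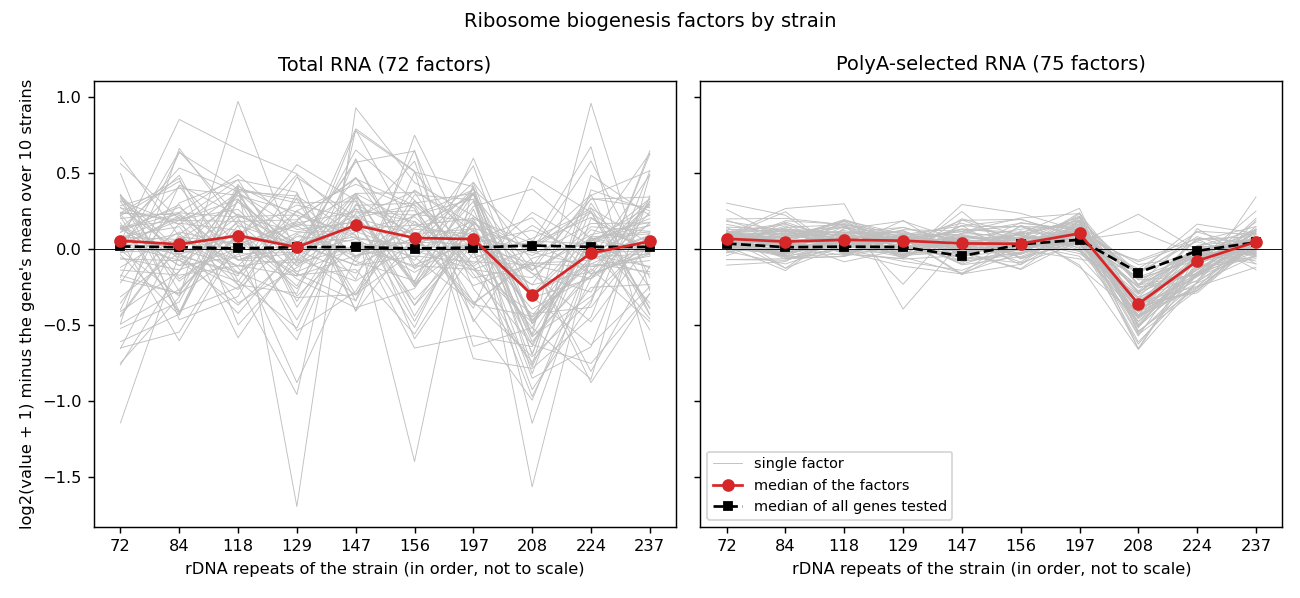
Deviation of each factor from its own mean over the 10 strains on the log2(value + 1) scale, total RNA on the left and polyA RNA on the right; grey lines are single factors, red points their median and black squares the median of all genes tested. In the strain with 208 repeats the red point lies at -0.30 and -0.36, while the black one is at 0.02 and -0.15.

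How closely the factors moved together was described by correlation. Over the 10 strains the correlation of a factor with the median of the other factors had a median of 0.34 over 72 factors in total RNA and of 0.88 over 75 in polyA RNA, and without the strain with 208 repeats 0.01 and 0.56. The points of one assay share their libraries, so these are descriptions. Such correlations were not computed for other genes, so they cannot be called particular to the factors. In polyA RNA the median over all genes was itself at -0.15 in the strain with 208 repeats. The median SD of the factors over strains, on the log2 scale, was 0.33 in total RNA and 0.16 in polyA RNA, close to 0.30 and 0.14 over all genes. PWP1, a large-subunit factor, and NOP56 are the only neighbouring pair, on chromosome XII with 398 bases between them.

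In total RNA the slopes on array length centred near 0, and no factor passed the test. Limma called 0 of 72 at an adjusted p under 0.05, and 0.0249% of 4014 features. Unadjusted p under 0.05 were found for 7 factors, all negative, where 2.54% of all features did so in that direction, and 45 of 72 slopes were negative against 50.2%. The median was -0.04 per 100 repeats on the log2(value + 1) scale, and -0.00 over all features. The edgeR quasi-likelihood test and DESeq2 on the recovered reads also called 0. They gave 6 and 4 factors with a negative slope and an unadjusted p under 0.05, against 2.32% and 1.17% of all features. Without the strain with 208 repeats the limma median was 0.02, with 33 of 72 negative against 50.6% of all features.

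BFR2, a factor of early small-subunit particles, had the lowest p. Its normalised counts ran from 12.5 over 24.3 to 31.0, and the 3 lowest strains were those with 224, 208 and 237 repeats. The slope was -0.55 ± 0.19 (limma adjusted p = 0.987, as for all factors named in this paragraph). In polyA RNA BFR2 had a median of 35.0 TPM and a highest value of 37.6 TPM, with a slope of -0.20 ± 0.12, and the strain with 208 repeats was lowest, followed by that with 224. The others were NSA2 of the large subunit at -0.47 ± 0.18, RRP6 at -0.47 ± 0.19, KRR1, an RNA-binding processome protein, at -0.43 ± 0.19, EBP2 of the large subunit at -0.40 ± 0.18, UTP7 at -0.38 ± 0.18 and UTP21 of UtpB at -0.36 ± 0.14. On the positive side the 6 lowest p included ENP1, a factor of the small-subunit precursor, at 0.35 ± 0.18 and RRP46 of the exosome at 0.57 ± 0.34. The others of these 6 were NOP15 and RLP24 of the large subunit at 0.28 ± 0.23 and 0.27 ± 0.18, UTP15 at 0.24 ± 0.16 and NOP2, an rRNA methyltransferase, at 0.20 ± 0.12.

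The same strains allow the level in total RNA to be set beside that in polyA RNA. Total RNA values were divided by coding length, while the polyA TPM, already per length as deposited, were not. Both were then scaled to 1000000 over the 3682 genes measured in both. The length used for the TPM is not known here, so the length correction may differ between the assays. The difference is on the log2(value + 1) scale, total minus polyA. Limma called 44 of 72 factors, 34 higher and 10 lower in total RNA, where it called 76.4% of all genes, 62.7% higher and 13.7% lower. The median difference was 0.26 for the factors and 0.47 over all genes. With TMM factors these medians were -0.20 and 0.02 and the split turned to 11 higher and 36 lower. Removing the trend on coding length from each library gave -0.24 and -0.05, with 2 higher and 29 lower. The split between higher and lower thus rests on the scaling. In each of the 3 scalings the median of the factors lay about 0.2 below that of all genes. TMM factors shift all genes of a library alike, so the gap had to stay nearly the same there. It was not uniform over coding length, as given below.

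UTP20 had the largest difference. On this scale it lay at 92.4, 109.1 and 127.4 in total RNA (lowest, median and highest strain) and at 12.2, 14.6 and 17.3 in polyA RNA, so the groups do not overlap. The difference was 2.81 ± 0.07 (limma adjusted p = 4.59e-20), and 0.53 with the length trend removed. NOP10 was at the other end, with 490.4, 769.6 and 873 in total RNA and 1458, 1639 and 1855 in polyA RNA, again without overlap, and a difference of -1.22 ± 0.09 (limma adjusted p = 8.29e-12) that was -0.09 and not called with the length trend removed. UTP20 has the longest coding sequence of the 75, 7482 bases, and NOP10 the shortest, 177 bases.

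The other large positive differences belonged to RRP5, an RNA-binding protein needed for both subunits, at 2.33 ± 0.07, UTP10 at 1.89 ± 0.07, UTP22 at 1.51 ± 0.09, RRP12, an export factor, at 1.34 ± 0.07, the GTPase BMS1 at 1.25 ± 0.10 and PWP2 of UtpB at 1.17 ± 0.08. The remaining positive differences among the 12 of lowest p were those of UTP8, DIP2, UTP21, UTP15 and NOP2, at 0.87 to 0.58. With the length trend removed, RRP12, BMS1, DIP2, UTP21 and NOP2 changed sign, while RRP5 stayed at 0.54. Lower in total RNA were NIP7 at -1.05 ± 0.12, RRP1 at -0.78 ± 0.19, RRP15 at -0.75 ± 0.15, RLP7 at -0.65 ± 0.12, NOP53 at -0.52 ± 0.16 and NOP15 at -0.49 ± 0.15, all of the large subunit, and NOP6, UTP23 and RRP40 at -0.36 to -0.32. By role, 5 of 6 UtpA, 5 of 6 UtpB, 2 of 2 UtpC and 2 of 3 factors of both subunits were called higher and none of these lower. The large-subunit factors had 5 higher and 6 lower of 23, and over all genes 62.7% were called higher and 13.7% lower. Coding length differs between these roles, from 1542 to 5310 bases in UtpA and from 546 to 2058 in the large-subunit factors. The directions by role too turn in part with the scaling.

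The differences followed coding length. Spearman's rho of the difference with coding length was 0.89 over 72 factors and 0.79 over 3682 genes. Of all differences 44 of 72 were positive among the factors and 76.1% among all genes. Among the 24 shortest tested factors (177 to 984 bases) 3 differences were positive and the median was -0.21, against -0.19 for the other genes of that length range. Among the middle 24 (1035 to 1731 bases) 17 were positive with a median of 0.22 against 0.38, and among the longest 24 (1782 to 7482 bases) 24 were positive with 0.67 against 0.97.

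**Figure D5:**
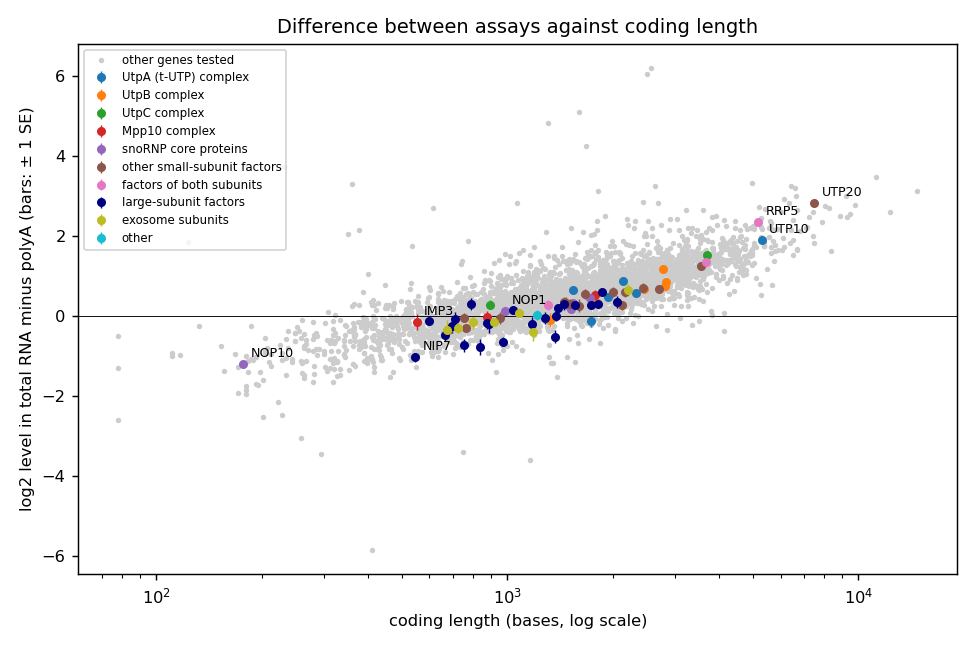
Difference in log2 level between total RNA divided by coding length and polyA TPM, total minus polyA, against coding length on a log axis. Coloured points are 72 factors by role with ± 1 SE, grey points the other genes tested. The factors run from NOP10 at -1.22 to UTP20 at 2.81, inside the cloud of the other genes.

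No factor passed the test between libraries of low and of normal polyA recovery. Limma called 0 of 75 factors, and 0.0181% of 5539 genes. Before adjustment 2 factors had a p under 0.05, both negative, where 2.13% of all genes did so in that direction. The median difference, low minus normal, was 0.02 for the factors and -0.01 over all genes. UTP22 had 27.1 and 25.4 TPM at low recovery and 27.3, 30.6 and 33.8 in the lowest, median and highest strain of normal recovery (difference -0.21 ± 0.09), and UTP10 24.9 and 22.4 TPM against 24.9, 28.2 and 32.1 (-0.23 ± 0.10; limma adjusted p = 0.999 for both). Both low-recovery values of UTP22 lay below all 10 others, while 1 of those of UTP10 was level with the lowest of them. UTP20 at -0.21 ± 0.11, RRP5 at -0.18 ± 0.10, RRP12 at -0.14 ± 0.08 and UTP15 at -0.11 ± 0.08 were next by p. The lowest p on the positive side belonged to RRP40, RRP43, RRP7, RRP17, NOP16 and UTP30, whose differences were 0.10 to 0.16. Longer factors had the more negative differences, with a rho of -0.50 over 75 factors and -0.29 over 5533 genes.

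The 2 low-recovery strains lay on opposite sides. The median deviation of the factors from their mean in the 10 others was 0.11 in the strain with 104 repeats and -0.09 in that with 166, and the median difference was -0.09 without the first and 0.11 without the second. With 1 library per strain, recovery and strain cannot be told apart.

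The slope on array length was compared between total RNA and polyA RNA in 1 fit over 3682 genes. Limma called 0 of 72 factors and 0.0% of all genes, with an unadjusted p under 0.05 for 2 factors, both with the higher slope in total RNA, where 1.87% of all genes had one in that direction. These were UTP11, a processome component, at 0.43 ± 0.19, and ENP1 at 0.43 ± 0.20 (limma adjusted p = 0.999 for both). ENP1 had 17.1, 31.3 and 39.0 normalised counts in total RNA (lowest, median and highest strain) and 39.5, 47.0 and 53.8 TPM in polyA RNA. Its lowest total RNA value was in the strain with 72 repeats and its lowest polyA value in that with 208. The median difference was 0.03 for the factors and 0.01 over all genes.

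Other genes of the same pathway, outside the naming rule, were measured in the same fits. In polyA RNA the slopes were negative in 29 of 31 further small-subunit genes (median -0.12), 38 of 45 large-subunit genes (-0.08) and 10 of 10 H/ACA snoRNP and exosome genes (-0.12). Over all genes 59.4% were negative, with a median of -0.02, and limma called none of the listed genes. The lean of the factors shrank without the strain with 208 repeats, and that fit is not given here for these lists. The lowest p belonged to LTV1 at -0.22 ± 0.08 and FCF2 at -0.21 ± 0.09 of the small subunit, to MRT4 at -0.17 ± 0.07 and LOC1 at -0.23 ± 0.10 of the large subunit, and to LRP1 at -0.24 ± 0.10 and MTR3 at -0.17 ± 0.08 of the exosome. Of 11 regulators of the pathway's transcription 4 had a negative slope, with a median of 0.04, led by CRF1, a corepressor of ribosomal protein genes, at 0.21 ± 0.11. In the total RNA trend limma called none of the 4 lists either, and their medians lay between -0.08 and 0.00. Between total RNA and polyA RNA, limma called 14 higher and 2 lower of 27 small-subunit genes and 34 and 3 of 42 large-subunit genes. It called 3 and 3 of 8 snoRNP and exosome genes and 8 and 2 of 10 regulators, where 62.7% of all genes were called higher and 13.7% lower. REA1, the giant ATPase of large-subunit assembly, had the largest of these differences, 3.13 ± 0.08, and NAN1, the UtpA subunit outside the naming rule, had 1.27 ± 0.07; as for the factors, such signs depend on the scaling.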

How the data were processed

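The polyA files hold TPM as deposited by the authors, summing to 1000000 in each library, with 96 spike-in entries at 0. The total RNA files hold a normalised signal deposited by the authors: read counts divided by a size factor. Of their values, 100% were whole multiples of 1 read within a tolerance of 0.001, and reads recovered so gave the depths. The submitters' processing notes name sacCer3, Salmon 0.8.1, bcl2fastq and DESeq2; the read counter for total RNA is not given in the sources used here.

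Slopes per 100 repeats and differences were fitted with limma 3.58.1 (R 4.3.3) with trend and robust moderation on log2(value + 1), over genes averaging 1 TPM or more, or passing edgeR's filter on the recovered reads, leaving out 48 rDNA features; p-values are two-sided and adjusted over all genes fitted (Benjamini-Hochberg, threshold 0.05). The log2 values understate changes of low genes. Alternatives covered pseudocount, filter, scaling, covariates, each strain left out, and edgeR 4.0.16 and DESeq2 1.42.0 on recovered reads. Fits were also run on simulated data, for which no detection rate is given here. Its genes were drawn independently, without a shift shared by the genes of a library. For total RNA against polyA it left out the scaling per coding length. RefSeq R64 gave symbols, coding lengths and promoters, with Python 3.11.15, scipy 1.17.1 and matplotlib 3.10.9. Both assays used the same strains, which pairs the libraries: across assays, the 2 libraries of a strain deviated together, with correlations of 0.137 to 0.515. The members, gene lists and roles were chosen with earlier results of these data known. The genes named are up to 12 factors called per direction in a comparison or else the 6 with the lowest p, the extremes of level in each role, NOP1, NOP56 and NOP58, and the 2 to 4 lowest p of each other list; the remaining factors at an unadjusted p under 0.05 and the strain with 208 repeats were singled out after their values were seen.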

Additional observations from a re-analysis of the deposited data

Results flagged for a closer look

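Of 154 sets of 10 strain values examined, 28 had 1 strain far from the other 9 by Dixon's ratio, above its critical value of 0.466; chance alone puts about 5% of such sets there. Among single genes tested, 21 of 75 factors stood apart so in polyA RNA against 12.5% of all 5542 genes, and 3 of 72 in total RNA against 6.1% of all 4014 features. All 21 were low at 208 repeats, as were 7.65% of all genes in polyA RNA. The sets are not independent, since all come from the same libraries. In 25 of the 28 the strain with 208 repeats was the low one.

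In polyA RNA the large-subunit factors far below the others at 208 repeats were EBP2 at 60.2 TPM (83.9 to 103.6 in the other strains), NOP15 at 62.9 TPM (96.2 to 114.1), NOP7 at 81.3 TPM (109.1 to 121.1), NOP53 at 27.5 TPM (40.7 to 46.7), NUG1 at 62.6 TPM, PWP1 at 59.8 TPM, RLP7 at 71.4 TPM, RPF1 at 31.3 TPM and RRP1 at 38.1 TPM. Among the small-subunit factors they were UTP11 at 30.8 TPM (45.7 to 58.7), ENP2 at 27.2 TPM (35.9 to 40.6), UTP14 at 22.6 TPM, UTP13 at 22.0 TPM, DIP2 at 20.3 TPM, UTP4 at 25.1 TPM and NOP9 at 18.6 TPM. The exosome subunits RRP4, RRP43 and RRP6 had 27.9, 25.5 and 20.7 TPM there, NOP56 186.6 TPM (232.7 to 257.0) and NOP13 57.4 TPM.

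The same strain stood apart in the median deviation of the factors, at -0.30 in total RNA and -0.36 in polyA RNA, and in the share of the factors, 0.626% of the reads outside the rDNA and 0.538% of TPM. Of the total RNA values of single factors, 3 stood apart so and none of them at 208 repeats: NIP7 at 23.2 normalised counts in the strain with 84 repeats (9.9 to 16.7 elsewhere), UTP18 at 38.1 in that with 147 (20.2 to 29.02), and RRP3 at 11.1 in that with 129 (20.53 to 25.9).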

How the results depend on the processing

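The count of factors called stayed at 0 in the polyA trend, the total RNA trend, the low-recovery comparison and the difference of trend under every alternative run. Between total RNA and polyA RNA it was 31 to 49 of 72, and the median difference of 0.26 was -0.20 with TMM factors and -0.24 with the length trend removed, a change that the scaling makes by construction. With the length trend removed the differences of RRP12, BMS1, NOP2, UTP21 and DIP2 were -0.024, -0.071, -0.11, -0.34 and -0.25. With strain series as a covariate the slopes of UTP15 in polyA RNA and RLP24 in total RNA were -0.023 and -0.14, and the difference of slope of NOP10 was 0.097; the cause was not tested.

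Leaving out 1 strain at a time, the median polyA slope lay between -0.16 and -0.03, the median total RNA slope between -0.06 and 0.02, and the low-recovery median between -0.09 and 0.11. The slope of UTP5 lay between -0.018 and 0.043, and the low-recovery differences of NOP16, RRP7 and UTP30 between -0.061 and 0.38, -0.012 and 0.32, and -0.017 and 0.25. In the paired fit with the strain as a replicate block, 49 factors were called between assays against 44 without it, and 0 in the difference of trend as without it; the block changed no other call. Depth limits total RNA: at the median factor's 27.7 reads, counting error alone is 19.0% of the value.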
